A study of Gallus gallus with 24 samples.

Results

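Of 17136 genes measured in chick intestinal mesoderm, 73 were expressed more highly in midgut than in hindgut and lay, on average, near the control midgut level in midgut that carried Hoxd13. Their expression was a median of 2.34-fold higher in control midgut than in control hindgut over the 72 genes with hindgut counts, and together they took 2402 ± 208 CPM, counts scaled by each library's total, in control midgut and 1155 ± 66.9 CPM in control hindgut (SD, n = 4 each). In Hoxd13 midgut 1 to 3 they took 2359 ± 303 CPM (SD, n = 3). The genes were chosen from these values, on the scale of log2(CPM + 1). The mean had to be at least 0.7 higher in control midgut than in control hindgut, every hindgut library had to lie below every midgut library, and the mean of Hoxd13 midgut 1 to 3 had to differ from the control midgut mean by less than 0.3. These differences are therefore a description with no test. Hoxd13 midgut 4 was kept out of the choice.

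Midgut and hindgut that received RCAS-mGFP were the controls and were compared with midgut that received RCAS-Hoxd13, with 4 libraries in each group. RCAS is a replicating avian retroviral vector. Per the labels, the constructs were electroporated in ovo into splanchnic lateral plate mesoderm at stage HH 17, which the protocol places at midgut level for both constructs, and eggs were kept at 38 °C. All groups, controls included, are labelled with a virus, the hindguts too, and per the series' design text the endoderm was removed by hand. The labels list 12 samples of age E12 and 12 of age E14, but the tables of both ages hold the same values, so the age of these 12 libraries is not known. No label ties a replicate to an embryo of its own, so the tests below rest on a spread between libraries that may be only technical.

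Hox genes encode homeodomain transcription factors whose nested expression along the body axis gives regions their identity. Hoxd13 lies at the end of the HoxD cluster that is expressed most posteriorly, and in the chick gut it is a gene of the hindgut mesoderm. In earlier chick work, its misexpression in midgut mesoderm gave the overlying epithelium hindgut features. The genes described here were measured in mesoderm, and a link between them and that change was not tested.

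Genes are given by Ensembl ID, because 0 of the 17136 IDs could be paired with a symbol, and no function is assigned to any of them. For the same reason the level of Hoxd13, the markers of mesoderm and the markers of other cell types, gut epithelium and blood among them, were not checked here. In bulk tissue, fewer cells of a type and less RNA per cell cannot be told apart. Library totals were between 7607185 and 10880695 counts. Hoxd13 midgut 4 stood apart, with counts in 13480 genes against 14565 to 14832 in the others, and 34.03% of its counts in its 100 most abundant genes against 21.7% to 24.1%.

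ENSGALG00000036836 had the largest midgut excess of the 73 genes. Its level was 30.9, 39.8, 48.5 and 44.9 CPM in control midgut 1 to 4, 5.12, 4.19, 4.98 and 5.43 CPM in control hindgut 1 to 4, and 34.3, 42.1, 41.6 and 30.4 CPM in Hoxd13 midgut 1 to 4. All 4 Hoxd13 midguts were far above the hindguts, and Hoxd13 midgut 4 lay just below the lowest control midgut. The mean was 41.1 ± 7.63 CPM in control midgut and 4.93 ± 0.527 CPM in hindgut (SD, n = 4 each), an 8.32-fold ratio, and 39.4 ± 4.37 CPM in Hoxd13 midgut 1 to 3 (SD, n = 3). In edgeR the log2 fold change was -3.10 ± 0.16 in hindgut and -0.19 ± 0.15 in Hoxd13 midgut 1 to 3, each against control midgut (SE).

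ENSGALG00000042492 had the next largest excess. It was at 64.5, 76.4, 77.6 and 61.0 CPM in control midgut 1 to 4 and at 11.3, 12.2, 14.9 and 11.3 CPM in control hindgut 1 to 4. In Hoxd13 midgut 1 to 4 it was at 56.2, 72.9, 53.2 and 49.4 CPM. Of these only Hoxd13 midgut 2 was within the range of the control midguts, and all 4 were above every hindgut by a wide margin. The means were 69.9 ± 8.35 and 12.4 ± 1.73 CPM in control midgut and hindgut (SD, n = 4 each) and 60.8 ± 10.6 CPM in Hoxd13 midgut 1 to 3 (SD, n = 3), and the edgeR log2 fold change in Hoxd13 midgut 1 to 3 was -0.33 ± 0.13 against control midgut (SE).

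ENSGALG00000011046 and ENSGALG00000041140 are named because, among genes at 5 CPM or more in control midgut, they had the highest values in Hoxd13 midgut 4 relative to control midgut. ENSGALG00000011046 was at 8.77, 10.97, 11.5 and 9.65 CPM in control midgut, at 6.89, 4.93, 4.79 and 5.97 CPM in hindgut, and at 12.4, 11.9, 10.6 and 24.7 CPM in Hoxd13 midgut 1 to 4. Its control groups were close together, with means of 10.2 ± 1.24 and 5.64 ± 0.982 CPM (SD, n = 4 each), and Hoxd13 midgut 4 was 2.42-fold above the control midgut mean. ENSGALG00000041140 was at 37.7, 64.6, 65.2 and 65.1 CPM in control midgut, at 17.5, 27.3, 20.7 and 25.4 CPM in hindgut, and at 84.5, 47.1, 44.9 and 104 CPM in Hoxd13 midgut 1 to 4. Hoxd13 midgut 2 and 3 were within the range of the control midguts and Hoxd13 midgut 1 and 4 were above it, and its means were 58.2 ± 13.6 CPM in control midgut and 22.7 ± 4.44 CPM in hindgut (SD, n = 4 each).

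**Figure D1:**
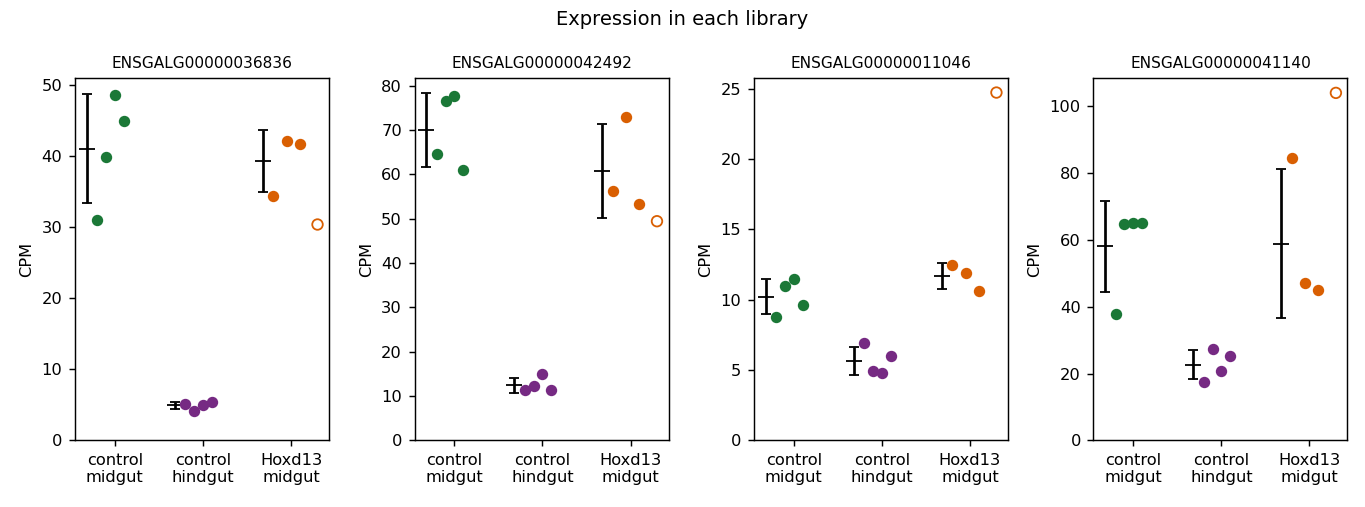
CPM (y axis, from 0) of the 4 named genes in each library, with the mean ± SD of each group in black; filled orange points are Hoxd13 midgut 1 to 3, which enter that group's mean, and the open point is Hoxd13 midgut 4. The hindgut points lie below all midgut points in each panel, and the open point is the highest in ENSGALG00000011046 (24.7 CPM) and ENSGALG00000041140 (104 CPM).

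Most of the 73 genes were expressed at low to middle levels. The mean CPM in control midgut ran from 0.957 to 246 with a median of 15.7, 14 genes were under 5 CPM and 13 were at 50 CPM or more. The most abundant gene was at 200.1, 288, 231 and 265 CPM in control midgut 1 to 4, at 151, 112, 153 and 146 CPM in hindgut, and at 265, 219, 161 and 224 CPM in Hoxd13 midgut 1 to 4. In Hoxd13 midgut 3 it stood closer to the highest hindgut, 153 CPM, than to the control midgut mean of 246 CPM. One gene had 0 counts in every hindgut, which allows up to 0.0748 CPM over the 4 libraries for 3 counts, and 11 to 25 counts in the control midguts, with 1.73 ± 0.527 CPM (SD, n = 4), at least 23.1-fold higher, counting error only. It had 19, 19 and 18 counts in Hoxd13 midgut 1 to 3 and 0 in Hoxd13 midgut 4, where 3 counts would be 0.394 CPM.

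The midgut excess was moderate in most of the genes. On the log2(CPM + 1) scale the difference between control midgut and hindgut ran from 0.71 to 2.81 with a median of 0.98, and it was under 1 in 42 genes and 2 or more in 2. By number, the median difference between same-numbered midgut and hindgut libraries was 0.91, 1.08, 1.05 and 1.09 for numbers 1 to 4. Of the 73 genes, 72 passed the filter on low counts, and the remaining one had 6 to 12 counts per control midgut. In edgeR 65 of the 72 were called lower in hindgut, against 2.11% of all 12931 genes tested, and 67 of 71 tested were called with the replicate numbers as a block, against 4.12%. The rule asked for this difference, so nothing is read from these shares. The count of 65 was 50 in a fit that put Hoxd13 midgut 4 in the Hoxd13 group, and 53 to 68 without single libraries.

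**Figure D2:**
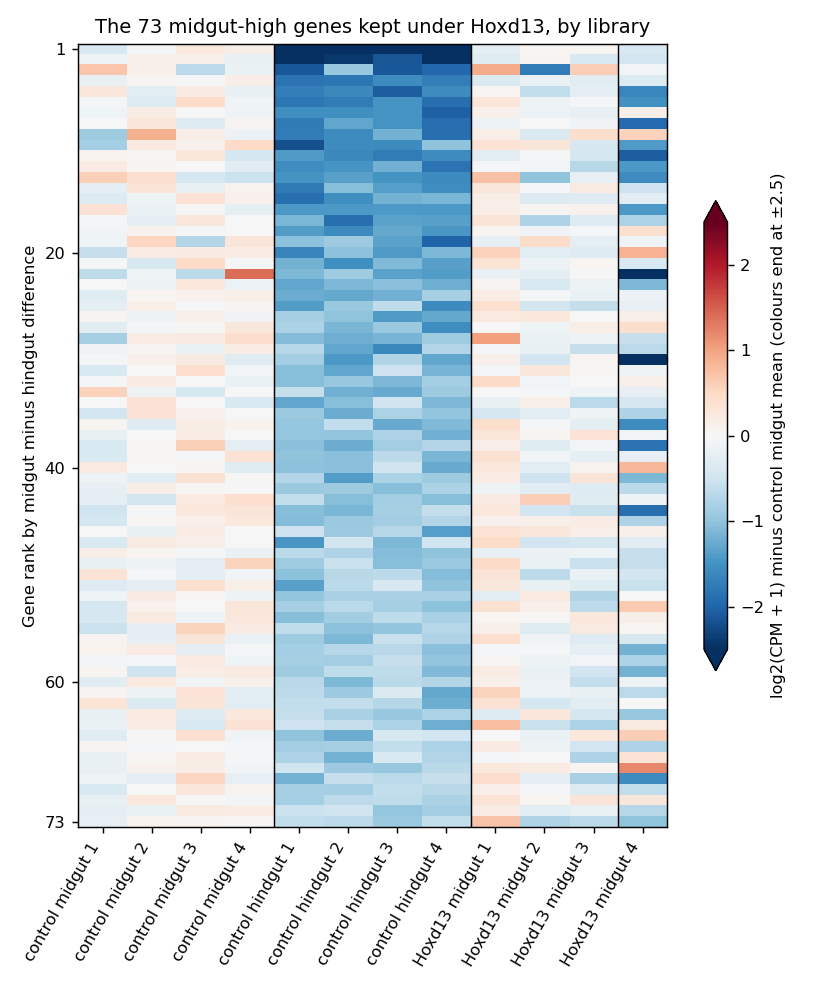
Each row is 1 of the 73 genes, ordered by midgut minus hindgut difference, and each column a library; colour gives log2(CPM + 1) minus the mean of the 4 control midguts. Hindgut columns are blue in every row, as the rule requires, Hoxd13 midgut 1 to 3 are mostly pale, and Hoxd13 midgut 4 ranges from -2.78 to 1.20.

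Every hindgut lay below every midgut in 3.96% of all tested genes, and 183 genes met both conditions on midgut and hindgut, and the 73 kept genes made up 39.9% of them. Another 92 were lower in Hoxd13 midgut 1 to 3 by 0.3 or more and 18 were higher by 0.3 or more. A mean of Hoxd13 midgut 1 to 3 within 0.3 of control midgut was found in 56.7% of all tested genes. Of 494 genes that met the same conditions with hindgut and midgut exchanged, 158 (31.98%) were within 0.3. These shares were not tested against each other. The 92 lowered genes had a larger median midgut excess, 1.27 against 0.98 on the log2(CPM + 1) scale, and 8 of them exceeded the largest value of the kept genes. The 18 raised genes had a median excess of 1.19. The midgut excess and the Hoxd13 difference share the control midgut mean, and the rule used both, so nothing is read from this contrast. At the edges of the rule the kept genes were continuous with their neighbours. The smallest midgut excess inside was 0.711 and the largest outside was 0.698, and the Hoxd13 difference nearest to each limit was -0.276 inside and -0.302 outside at the lower limit, and 0.263 inside and 0.309 outside at the upper.

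**Figure D3:**
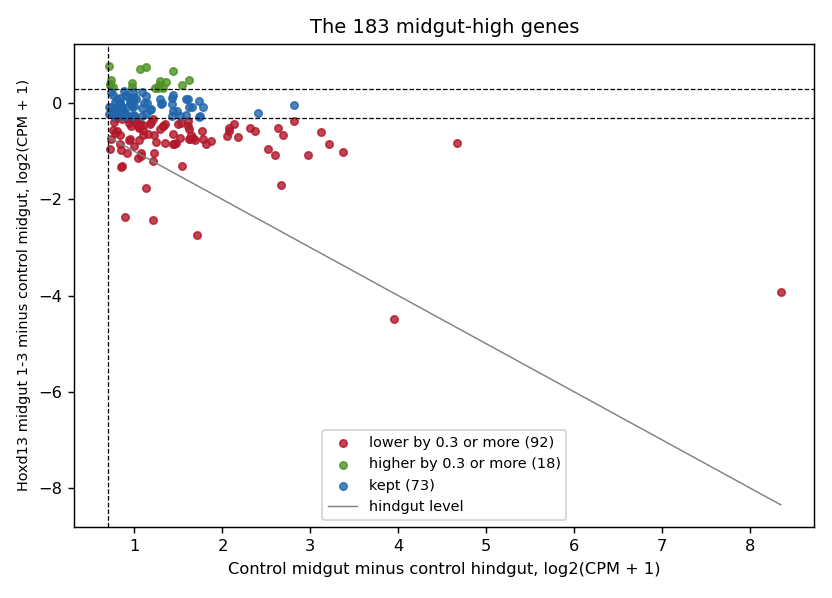
Difference of control midgut and hindgut (x axis) and of Hoxd13 midgut 1 to 3 and control midgut (y axis), both in log2(CPM + 1), for the 183 midgut-high genes; dashed lines are the limits of the rule at 0.7 and ±0.3, and the grey line marks the hindgut level. The 73 kept genes form the middle of a continuous spread, between 92 lowered and 18 raised genes, and 2 of them exceed 2 on the x axis.

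The kept genes were not all at the control midgut level in every Hoxd13 library. In 65 of the 73 genes each of Hoxd13 midgut 1, 2 and 3 was above every hindgut, against 13.6% of all tested genes. The rule placed these genes high in midgut and near it under Hoxd13, so nothing is read from that excess. In the other 8, at least 1 of them reached the hindgut range: Hoxd13 midgut 2 in 5 genes, Hoxd13 midgut 3 in 5 and Hoxd13 midgut 1 in 0. In 24 of the 73 genes all 3 libraries were within the range of the control midguts, against 14.6% of all tested genes, a count that the rule favours. The range over Hoxd13 midgut 1 to 3 had a median of 0.55 against 0.38 in all tested genes, on the log2(CPM + 1) scale. It was 0.78 in the lowered and 0.45 in the raised midgut-high genes. The control midguts also varied more in the kept genes, with a median SD of 0.269 against 0.195 in all tested genes. This was not particular to them, as it was 0.254 in the lowered and 0.288 in the raised genes. Over Hoxd13 midgut 1 to 3 the median SD was 0.284 in the kept genes against 0.201 in all tested genes. It was 0.412 in the lowered and 0.227 in the raised genes. The kept genes were also less abundant, with a median of 15.7 CPM in control midgut against 27.1 CPM in all tested genes. The widest range of the kept genes was in a gene at 7.19, 0.286 and 5.63 CPM in Hoxd13 midgut 1, 2 and 3, at 6.01, 3.73, 1.75 and 2.86 CPM in control midgut and at 0 to 1.26 CPM in hindgut. Part of the order of the libraries recurred across genes. Hoxd13 midgut 1 was the highest of the 3 in 48 of the 73 genes, against 36.4% of all tested genes. The lowest was Hoxd13 midgut 3 in 36 of the 73 and Hoxd13 midgut 2 in 30 of the 73. Both are larger shares than the 33.9% and 30.6% of all tested genes. Hoxd13 midgut 1 was the lowest in 7 of the 73, a smaller share than the 35.5% of all tested genes. The median difference from the control midgut mean was 0.18, -0.14 and -0.20 in Hoxd13 midgut 1, 2 and 3. This order was not particular to the kept genes. With each library left out of the choice, the other midgut-high genes were at -0.33, -0.69 and -1.04 in it, relative to all genes. The rule used these 3 libraries and genes are not replicates, so the order was not tested.

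These values depend on how the libraries are scaled. With library totals, the median of all tested genes was itself 0.15 higher in Hoxd13 midgut 1 to 3 than in control midgut, and the kept genes had a median of -0.07, which is 0.23 below that of all genes (a difference of -0.23). With totals adjusted by TMM, edgeR's trimmed-mean scaling, the median of all genes was 0.03 and that of the kept genes -0.19, and 62 of the 73 lay below the control midgut mean. Of the 73, 56 still met the rule and 17 were lower by 0.3 or more. In edgeR, which uses TMM, the median log2 fold change over the 72 tested genes was -0.20 in Hoxd13 midgut 1 to 3 and -1.27 in hindgut, each against the same control midguts. No gene of the 72 was called between Hoxd13 midgut 1 to 3 and control midgut by edgeR (0 of 72, against 2.51% of all genes), 4 had an unadjusted p under 0.05, and DESeq2 called 2 lower. Without control hindgut 3 edgeR called 2 lower, and without Hoxd13 midgut 1 it called 1 lower. A small difference was a condition of the choice, so the count of 0 does not show that these genes were unaffected. The median standard error of the log2 fold change was 0.239. The fold change less 2 standard errors stayed above 50% of the fall seen in hindgut in 36 of the 72 genes. In the other 36 it did not, and in 2 of these it took in the whole fall. The rule limited the Hoxd13 difference and required a midgut excess in these same libraries, so nothing is read from these counts. Against hindgut, 47 of the 72 were called higher in Hoxd13 midgut 1 to 3, where 2.68% of all genes were, a count that the rule favours, and 31 were without control hindgut 4.

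Hoxd13 midgut 4, which the choice did not use, lay lower, and so did the median of all tested genes in it. The difference of Hoxd13 midgut 4 from the control midgut mean had a median of -0.47 over the 73 genes, from -2.78 to 1.20, with -0.24 over all tested genes. With TMM the medians were -0.26 and -0.04. Relative to all genes the kept genes were at -0.24 and, with TMM, at -0.23. TMM rescales each library by a single factor, which nearly cancels relative to all genes, so nothing is read from the likeness of the scales. In Hoxd13 midgut 1 to 3, which the choice used, the kept genes relative to all genes were at -0.23 and, with TMM, at -0.21. The rule held the mean of Hoxd13 midgut 1 to 3 near control midgut, so nothing is read from the likeness of these medians. The spread differed. The quartiles of the difference from control midgut were -1.02 and 0.01 in Hoxd13 midgut 4, and -0.17 and 0.04 in the mean of Hoxd13 midgut 1 to 3. Hoxd13 midgut 4 was within 0.3 of the control midgut mean in 22 of the 73 genes (30.1%), against 23.1% of all tested genes. It was below every control midgut in 40 (54.8%), against 49.4%, and above every control midgut in 10 (13.7%), against 32.3%. In edgeR, with Hoxd13 midgut 4 as a term of its own that is assumed to vary like the other groups, 20 of the 72 tested genes were called lower than in control midgut, 27.8% against 29.9% of all genes, and 6 were called higher, 8.33% against 26.3%. This test compares 1 library with the control midguts, not the conditions, and the rule had used those midguts. It required them to be high, which favours a low share above them and a high share below them. Nothing is therefore read from the shares above and below the control midguts.

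The same library was also compared with the hindgut level. Hoxd13 midgut 4 was above every hindgut in 45 of the 73 genes (61.6%), against 29.0% of all tested genes, and at or below the highest hindgut in 28. It was called above hindgut by edgeR in 35 of 72 genes, 48.6% against 25.7% of all genes, and below hindgut in 2, 2.78% against 30.2%. The rule used the hindguts, which were chosen to be low in these genes. It therefore favours a high share above them and a low share below them, and nothing is read from these excesses. The largest shortfall was in a gene at 5.72, 8.73, 5.61 and 26.7 CPM in control midgut and at 8.37, 8.002 and 9.455 CPM in Hoxd13 midgut 1 to 3, which had 4 counts, 0.526 CPM, in Hoxd13 midgut 4. The next, at 7.99 to 12.04 CPM in control midgut, had 6 counts, 0.789 CPM. Shortfalls from control midgut were not limited to genes of low level. The median difference was -0.48 in the 30 genes at 20 CPM or more and -0.41 in the 43 below. In all tested genes at those levels it was -0.24 and -0.22. Hoxd13 midgut 4 was above every hindgut in 19 of the 30 genes and 26 of the 43. The shares of all tested genes at those levels were 30.5% and 26.9%, and the rule favours this excess too.

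The 92 genes lowered in Hoxd13 midgut 1 to 3 had a median of -1.71 in Hoxd13 midgut 4, were above every hindgut in 29 cases (31.5%) and within 0.3 of control midgut in 4. In edgeR 63 of 90 of them were called lower than in control midgut, 70.0% against the same 29.9%. The 18 raised genes had a median of 0.28, and all 18 were above every hindgut. The classes were chosen with the control midguts and Hoxd13 midgut 1 to 3, so the order in the held-out library uses 1 new library and shared controls, and genes are not replicates, so the difference between classes was not tested.

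**Figure D4:**
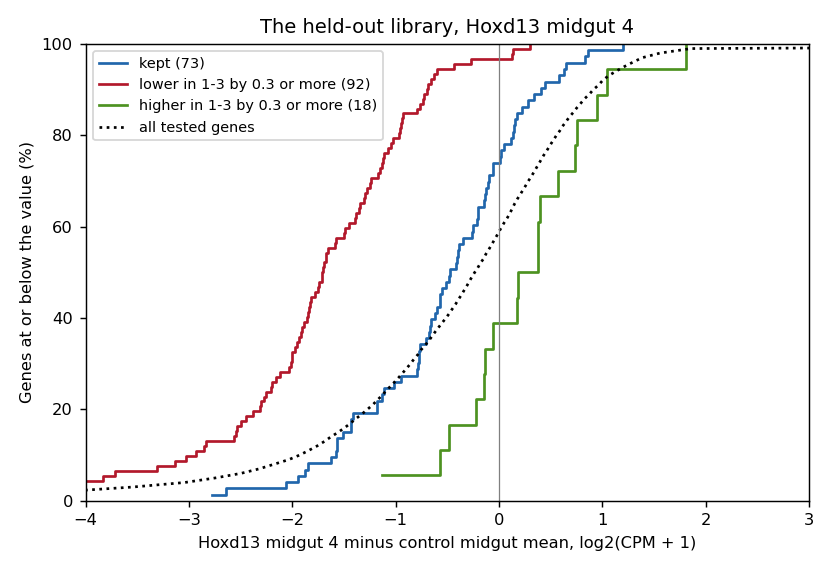
Cumulative share of genes (y axis, %) by the difference of Hoxd13 midgut 4 from the control midgut mean (x axis, log2(CPM + 1), shown from -4 to 3) for kept, lowered and raised midgut-high genes and for all 12931 tested genes. The kept genes, with a median of -0.47, have a narrower spread than all genes, at -0.24: their lower quartiles are -1.02 and -1.05 and their upper quartiles 0.01 and 0.41. The lowered genes lie to the left, at -1.71, with quartiles of -2.20 and -1.12. The raised genes have quartiles of -0.14 and 0.69, so both of these classes are also narrower than all genes.

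The same placement was made for each Hoxd13 library in turn, with the genes chosen anew without it. Without Hoxd13 midgut 1 there were 61 genes, and the left-out library was above every hindgut in all 61, against 28.7% of all tested genes. Without Hoxd13 midgut 2 it was so in 62 of 71 genes (87.3%, against 33.8%), and without Hoxd13 midgut 3 in 80 of 88 (90.9%, against 36.0%). Among the other midgut-high genes of each choice the shares were 87.7%, 71.4% and 62.1%. The median difference of the left-out library from control midgut was 0.18, -0.16 and -0.27, which relative to all genes was 0.04, -0.29 and -0.44, and in the other midgut-high genes it was -0.33, -0.69 and -1.04 relative to all genes. Within 0.3 of control midgut were 60.7%, 56.3% and 43.2% of the genes, against 60.3%, 52.4% and 41.9% of all tested genes and 35.2%, 26.8% and 11.6% of the other midgut-high genes. For Hoxd13 midgut 4 the share of the other midgut-high genes was 9.09%. Control midguts left out in the same way, with the genes chosen anew, were above every hindgut in 88.8%, 93.8%, 92.0% and 93.2% of the genes for numbers 1 to 4, against 15.6% to 24.1% of all tested genes. They were within 0.3 of the mean of the remaining control midguts in 44.9%, 65.0%, 48.0% and 68.5%, against 64.1%, 69.4%, 76.8% and 79.7% of all tested genes. The median difference of the left-out control midguts from that mean, relative to all genes, was -0.145, -0.052, 0.043 and -0.064 for numbers 1 to 4. In each left-out library, Hoxd13 midgut 4 included, the kept genes were above every hindgut more often than all genes. For the Hoxd13 libraries the shares within 0.3 of control midgut lay much closer together. For each left-out control midgut the kept genes had a lower share within 0.3 than all genes. So did the other midgut-high genes, at 44.9%, 44.8%, 63.7% and 62.6% for numbers 1 to 4. Each choice still required low hindguts, which favours a high share above the hindguts for any midgut library, as the left-out control midguts show. The kept and other midgut-high genes of each choice were split by the control midgut mean from which the left-out Hoxd13 library was then measured. The contrast between them therefore shares its controls with the choice. These differences in shares and medians were not tested.

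One control library decided how many genes met the rule. Without control hindgut 2 the count was 145 in place of 73, with 70 of the 73 among them, while it was 71 to 91 without any other control library. Of the 75 genes added, control hindgut 2 was above the other hindguts in all 75 and above every control midgut in 50. Their median level was 0.279, 6.92, 0.287 and 0.320 CPM in control hindgut 1 to 4, and 4.73, 4.47, 1.75 and 1.67 CPM in control midgut 1 to 4. In Hoxd13 midgut 1 to 4 it was 5.15, 0.667, 5.31 and 1.71 CPM. The high level in control hindgut 2 is what kept these genes out of the 73 and is no finding. Outside that library, their median was also higher in control midgut 1 and 2 than in 3 and 4, and lower in Hoxd13 midgut 2 than in Hoxd13 midgut 1 and 3. The rule required all hindguts of the 73 kept genes to be low, control hindgut 2 included, and their median differences from control midgut in control hindgut 1 to 4 were -1.02, -1.05, -0.95 and -1.11. Over the deviations of 11 libraries from their group means, 1 of the 73 kept genes correlated at 0.7 or more with the mean profile of the 75, against 2.54% of all tested genes. These deviations include control hindgut 2, so the rule bears on that count too. That gene is the one with the widest range over Hoxd13 midgut 1 to 3, and without it the median in Hoxd13 midgut 4 was -0.48 over 72 genes. Markers of residual epithelium or of other tissue could not be read in these libraries, and their part in the profile was not tested.

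**Figure D5:**
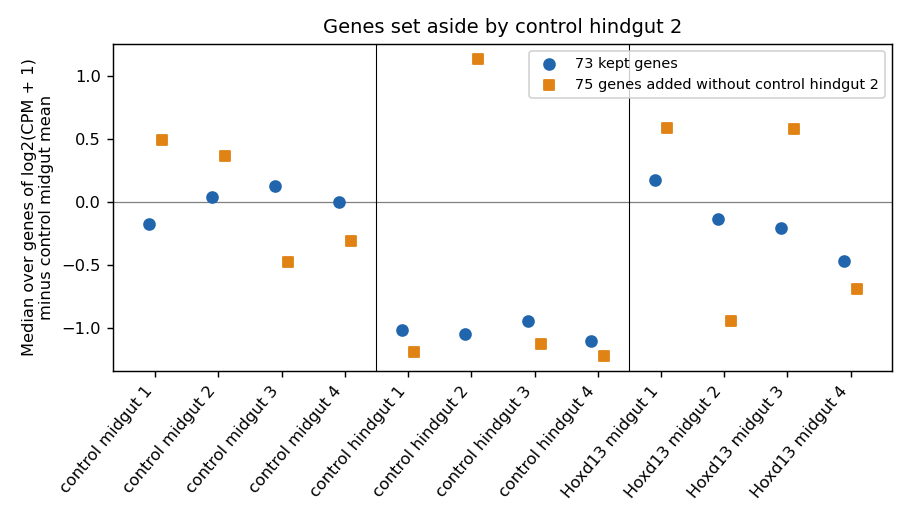
Median over genes of log2(CPM + 1) minus the control midgut mean (y axis) in each library, for the 73 kept genes (circles) and the 75 genes that join them when control hindgut 2 is left out (squares). The squares stand at 1.14 in control hindgut 2 and between -1.23 and -1.13 in the other hindguts, while the circles stay between -1.11 and -0.95 in all 4.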

How the data were processed

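The deposited tables hold estimated counts for each Ensembl gene, as whole numbers. Salmon, DESeq2 and the build GRCg6a are named, without role or version, per the submitters' processing notes, and the annotation and any filter are not given in the sources. Of the 205632 values in each of 2 tables, 0 differed between the tables, and they were used as 1 set of 12 libraries. Genes and lists were chosen with earlier results of these data known. No ID matched the reference gene table (assembly GRCg7b, 25635 rows, 0 filled Ensembl cells), so 29 gene and marker lists had 0 matched members, and no sequence is shown. The 4 named IDs follow a rule for unpaired IDs: among genes at 5 CPM or more in control midgut, the 2 with the largest midgut excess and the 2 others highest in Hoxd13 midgut 4.

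Tests on the counts used edgeR 4.0.16 under R 4.3.3 (robust quasi-likelihood, TMM, filterByExpr with a count minimum of 10, Benjamini-Hochberg adjusted p under 0.05), in 1 fit with terms for control midgut, control hindgut, Hoxd13 midgut 1 to 3 and Hoxd13 midgut 4. Standard errors come from the F statistic. Only the comparison of hindgut with midgut was checked on simulated counts, with large changes, and the Hoxd13 comparisons were not. DESeq2 1.42.0, no filter, other groupings, a replicate block and leaving out libraries were alternatives. Same-numbered control midgut and hindgut libraries deviated together, with correlations of 0.489, 0.435, 0.528 and 0.531 for numbers 1 to 4. These numbers were taken as pairs, from the data and not the labels, only in the fit with a replicate block. The main fit held no replicate term, so its calls and standard errors ignore this pairing. Numbers shared with Hoxd13 midgut, with correlations from -0.358 to 0.178, were not taken as pairs.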

Additional observations from a re-analysis of the deposited data

Results flagged for a closer look

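Of 18 sets of 4 values examined, covering the named genes and the kept genes as a whole, 3 held a library far from the other 3 of its group, where chance flags about 1 in 20. ENSGALG00000011046 was at 24.7 CPM in Hoxd13 midgut 4, far above the 10.6 to 12.4 CPM of Hoxd13 midgut 1 to 3, and it had been named for that value. ENSGALG00000041140 was at 37.7 CPM in control midgut 1, far below the 64.6 to 65.2 CPM of the other control midguts. The summed level of the 73 kept genes was 1254 CPM in control hindgut 3, above the 1112 to 1132 CPM of the other hindguts.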

How the results depend on the processing

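The rule gave 73 genes, and 53 to 79 with TMM scaling, an offset of 2, the count filter, all 4 Hoxd13 midguts or a tolerance of 0.2, but 31 where the difference had to reach 1. When single libraries were left out it gave 61 to 145, the 145 without control hindgut 2. Similar counts did not mean the same genes. With all 4 Hoxd13 midguts in the mean, 51 of the 73 were kept, and with TMM 56 were kept and 23 others joined. Without single libraries 54 to 70 of the 73 were kept. Without control midgut 4 the count was again 73, but 59 of the genes were shared. The median in Hoxd13 midgut 4 was -0.47, -0.26 with TMM and -0.52 to -0.42 without single control midguts. Of the kept genes, 18 to 22 were called lower in Hoxd13 midgut 4 than in control midgut, and 32 to 35 higher than in hindgut, without single libraries. Over all tested genes, calls between hindgut and midgut (883) were 1329 with DESeq2, 442 with Hoxd13 midgut 4 in the Hoxd13 group, 1498 with a replicate block and 651 to 923 without single libraries. Calls between Hoxd13 midgut 1 to 3 and midgut (324) were 2202 with DESeq2, 832 with Hoxd13 midgut 4 in the group and 484 with a replicate block over numbers 1 to 3. Without single libraries they were 44 to 1427 (1427 without control hindgut 3, 647 without Hoxd13 midgut 1, 44 without Hoxd13 midgut 3, 83 to 209 without a control midgut, 190 and 187 without control hindgut 1 and 2, 184 without Hoxd13 midgut 2). The balance turned, from 205 higher and 119 lower to 787 and 1415 with DESeq2. In edgeR it was 329 and 503 with Hoxd13 midgut 4 in the group, and 85 and 399 with the block. Without control hindgut 3 it was 465 and 962, and without Hoxd13 midgut 1 it was 314 and 333. In the other settings more genes were called higher than lower. Calls between Hoxd13 midgut 1 to 3 and hindgut (746) were 2181 with DESeq2 and 1257 with a replicate block over numbers 1 to 3, which share only a number. Without single libraries they were 429 to 1663 (1663 without control hindgut 3, 446 without control hindgut 4, 459 and 429 without Hoxd13 midgut 2 and 3). The cause was not tested. Fits without Hoxd13 midgut 4, left-out placement of libraries, and scaling or offset for the named genes were added after seeing the data. With TMM the difference of Hoxd13 midgut 4 from control midgut in ENSGALG00000011046 was 1.42 in place of 1.20. Lone libraries, low counts and unnamed genes limit what these values show.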
